A study of Mus musculus with 24 samples.

Results

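The AP-1 Fos and Jun family was followed in neurons and glia of the mouse hippocampus, 24 hours after intracortical injection of kainic acid. Its 7 genes, Fos, Fosb, Fosl1, Fosl2, Jun, Junb and Jund, were chosen by name, with earlier results of these data known. They were looked up by gene ID among the 53379 genes of the count table. Each of the 7 was found, and each was among the 37598 genes tested. The study compared adult male C57/BL6N mice injected with kainic acid (KA) with sham mice injected with saline (SH). KA animals without convulsive seizures had been left out by the authors. Right hippocampi of 8 mice per treatment were combined into 3 pools, replicate 1 holding 4 mice and replicates 2 and 3 holding 2 mice each. Sorting on the neuronal nuclear protein NeuN then split the nuclei of every pool into NeuN+ nuclei (here neurons) and NeuN- nuclei (here glia, which holds every cell type without NeuN). This gave 4 groups of 3 libraries, SH neurons, KA neurons, SH glia and KA glia. The paper names no transgene, and the RNA is that of nuclei rather than whole cells. Because each library is a bulk of many nuclei, fewer nuclei of a type and less RNA per nucleus cannot be told apart.

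AP-1 is a transcription factor made of 2 proteins held together by a leucine zipper. Jun proteins can pair with each other or with a Fos protein, whereas Fos proteins need a Jun partner to bind DNA. Fos, Fosb and Junb are immediate early genes, whose transcription rises within minutes of strong neuronal activity without new protein synthesis. Jund is expressed more steadily, and a short form of the FosB protein is known for building up after repeated seizures. In the hippocampus, Fos is widely used as a marker of neurons that were recently active.

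Depth differed between libraries, from 7769400 to 40364768 counts per library. SH glia replicate 1 and KA glia replicate 2 were amplified from about 0.05 ng RNA with 15 PCR cycles, the other libraries from about 1 ng with 10 cycles. The 2 sequencing platforms are not assigned to libraries in the sources used here. Within each group, the replicate 3 library had fewer genes with a count (36165 to 42160 over the groups) than the other libraries (40660 to 47748). The count column used for SH glia 1 carries an extra letter at the end of its name that its sample's title lacks, and it was matched by the rest of the name. The neuronal marker Rbfox3, the gene of NeuN, ranged from 161.4 to 273.9 CPM (counts relative to the scaled library size) in neurons and from 17.7 to 56.9 CPM in glia. The myelin gene Mbp ranged from 58.0 to 295.1 CPM in neurons and from 1094 to 4976 CPM in glia, and the microglial receptor Cx3cr1 from 2.65 to 10.8 CPM and from 101.5 to 388.5 CPM. No defining marker was at 0 in either fraction.

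Sequence upstream of the genes was read from RefSeq for the mouse build GRCm38.p6, which holds a start for 6 of the 7 genes (Fosl1 has no entry). The 150 bases before the start of the 4 genes in which a searched site was found are shown, since activity is known to reach these genes through sites close to their start. Capitals mark TGACG, the core of the cAMP response element (CRE), in Fos, Fosb and Junb, and TGACATCA, a variant that differs from the full CRE, in Jun.
Fos, chr12:85473740-85473889, plus strand: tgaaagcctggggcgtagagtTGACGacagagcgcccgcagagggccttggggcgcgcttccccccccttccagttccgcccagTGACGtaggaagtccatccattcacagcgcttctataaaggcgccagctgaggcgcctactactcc
Fosb, chr7:19310046-19310195, minus strand: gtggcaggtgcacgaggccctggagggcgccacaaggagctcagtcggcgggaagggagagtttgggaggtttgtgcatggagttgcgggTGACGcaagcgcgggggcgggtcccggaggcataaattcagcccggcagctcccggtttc
Junb, chr8:84978749-84978898, minus strand: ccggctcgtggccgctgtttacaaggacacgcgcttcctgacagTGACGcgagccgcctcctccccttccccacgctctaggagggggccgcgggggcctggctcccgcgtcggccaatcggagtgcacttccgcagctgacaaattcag
Jun, chr4:95052223-95052372, minus strand: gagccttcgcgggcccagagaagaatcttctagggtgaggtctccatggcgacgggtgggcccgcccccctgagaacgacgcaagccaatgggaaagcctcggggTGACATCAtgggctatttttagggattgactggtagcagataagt
With the start site as 0, the core lies at -129 to -125 and -66 to -62 in Fos, at -60 to -56 in Fosb and at -106 to -102 in Junb. The variant of Jun lies at -45 to -38. The search covered 250 bases before to 50 after the start on both strands, and the core (TGACG or CGTCA) is also part of any full CRE (TGACGTCA). The core was in 3 of 6 members and in 20.8% of all 32851 promoters, and the variant (TGACATCA or TGATGTCA) in 1 of 6 members and in 3.62%. Within this window, the AP-1 site (TGAGTCA or TGACTCA), the full CRE and the CArG box were in none of the 6 members. Over all promoters, the shares were 5.2%, 1.79% and 1.63%. The CArG box is the site of serum response factor. Sites further upstream were not searched. For Jund, the RefSeq start (chr8:70697739) lies upstream of the gene start given below (chr8:70698949), and its window does not reach the latter. These counts describe letters in the window and say nothing about binding.

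The first question was which members changed with KA in neurons. Fos, Fosb and Fosl2 rose, with fold changes from 4.26 to 9.15. The 4 other members, Fosl1, Jun, Junb and Jund, did not pass the threshold, which was a false discovery rate (FDR) of 0.25 over all genes tested by the edgeR quasi-likelihood test. Thus 3 of 7 members were upregulated and none was downregulated, against 0.279% of all genes tested that were upregulated. That share includes many genes with low counts. In a fit of the 18632 genes with at least 10 counts in every library, which leaves out Fosb, 329 were upregulated. All 3 KA libraries lay above all 3 SH libraries for 6 of 7 members, Fosl1 being the exception, against 5.27% of genes. The median log2 fold change (logFC) of the 7 members was 1.96, and that of all genes was 0.00.

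Fos, at chr12:85473890-85477273, encodes the founding Fos protein. In SH neurons it measured 23.2, 12.01 and 12.5 CPM in replicates 1, 2 and 3, and in KA neurons 89.9, 154.0 and 192.1 CPM. The lowest KA library was above the highest SH library by a wide margin, and the logFC was 3.19 ± 0.64 (SE, FDR = 0.0943, n = 3 pools per group, edgeR). Fosb, at chr7:19302696-19310051, encodes FosB, and gene counts cannot separate its full and short forms. It measured 1.63, 4.26 and 2.78 CPM in SH neurons and 23.1, 16.9 and 36.8 CPM in KA neurons. The groups did not overlap, and its logFC of 3.14 ± 0.55 (FDR = 0.0527, edgeR) was close in size to that of Fos from a far lower level in CPM. Fosl2, at chr5:32135801-32157842, encodes Fra-2, a Fos protein known for a slower course than Fos. It measured 12.3, 22.8 and 27.1 CPM in SH neurons and 78.4, 87.6 and 99.2 CPM in KA neurons. The KA libraries lay close together, and the logFC was 2.09 ± 0.40 (FDR = 0.0742, edgeR). Fosl1, at chr19:5447547-5455946, encodes Fra-1, another Fos protein. It measured 2.97, 12.8 and 11.96 CPM in SH neurons and 8.63, 12.5 and 16.7 CPM in KA neurons, so the groups overlapped. SH replicate 1 was far below the other SH libraries, and the logFC of 0.45 had a 95% interval from -0.55 to 1.45 (FDR = 1, edgeR).

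Among the Jun genes in neurons, Junb, at chr8:84974484-84978718, is an immediate early gene whose protein often tempers that of Jun. It measured 109.2, 72.3 and 74.2 CPM in SH neurons and 170.6, 224.4 and 599.5 CPM in KA neurons. Every KA library was above every SH library, but KA replicate 3 stood far above the other KA libraries, and the logFC of 1.96 ± 0.59 did not pass (FDR = 0.59, edgeR). Jun, at chr4:95049034-95052222, encodes c-Jun and has a single exon. It measured 96.8, 110.2 and 141.8 CPM in SH neurons and 151.8, 204.8 and 368.3 CPM in KA neurons. The groups did not overlap, and its logFC of 1.05 ± 0.46 did not pass (FDR = 1, edgeR). Jund, at chr8:70698949-70700616, is the steadily expressed Jun gene. It measured 21.3, 16.2 and 19.6 CPM in SH neurons and 30.9, 23.4 and 36.8 CPM in KA neurons. The groups again did not overlap, and the logFC was 0.68 ± 0.35 (FDR = 1, edgeR).

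With the replicate number as a block, 5 of 7 members passed in neurons, since Junb (logFC 1.76, FDR = 0.0646) and Jun (logFC 0.97, FDR = 0.184) were added, against 1.94% of all genes upregulated in that fit. Without single libraries, Fos did not pass without SH neurons 1, 2 or 3 (FDR = 0.377, 0.393 and 0.472) or KA neurons 2 or 3 (FDR = 0.272 and 0.496). Fosb did not pass without SH neurons 1 or 3 (FDR = 0.377 and 0.256) or KA neurons 3 (FDR = 0.451). Fosl2 did not pass without SH neurons 1 or 2 (FDR = 0.527 and 0.292) or KA neurons 3 (FDR = 0.432), and Junb passed without KA glia 3 (FDR = 0.226). Over the 12 fits that each left out 1 library, the logFC stayed between 2.94 and 3.57 for Fos, 2.78 and 3.53 for Fosb, and 1.82 and 2.33 for Fosl2.

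**Figure D1:**
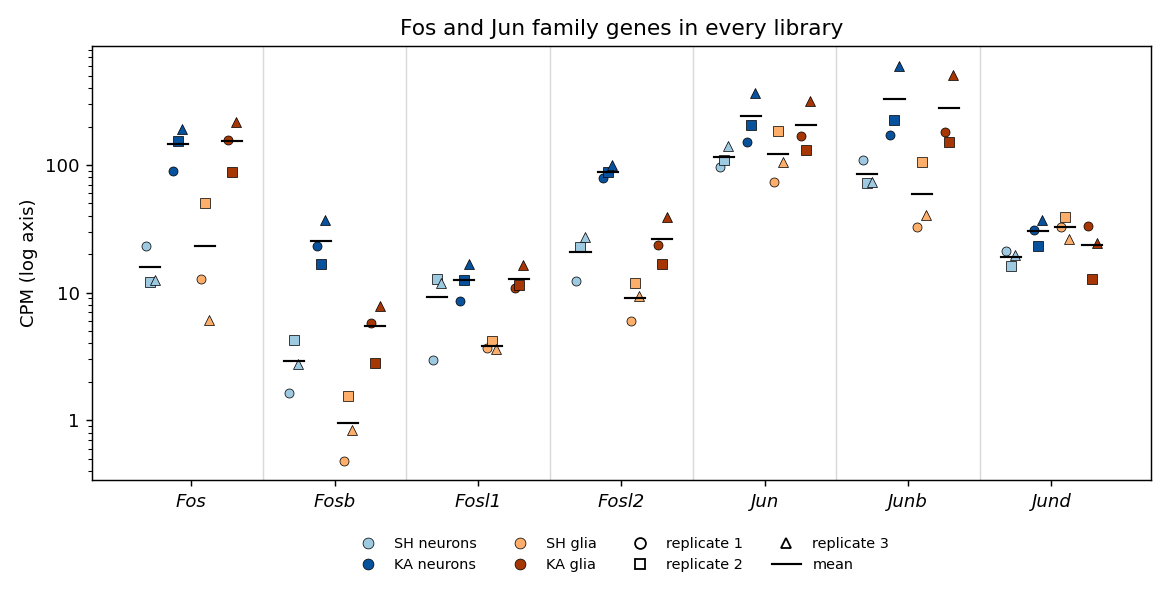
CPM of the 7 genes on a log axis in each of the 12 libraries, with colours for the 4 groups, symbols for the replicate and bars for the mean of 3 libraries. Fos reached 89.9 to 192.1 CPM in KA neurons and 88.3 to 217.0 CPM in KA glia, whereas Fosb and Fosl2 stayed lower in KA glia than in KA neurons in every library.

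The second question was which members changed with KA in glia. Fos, Fosb, Fosl2 and Junb rose, with fold changes from 2.90 to 6.70. Thus 4 of 7 members were upregulated and none was downregulated, against 0.442% of all genes tested that were upregulated. Among the 18632 genes with at least 10 counts in every library, fitted without Fosb, 443 were upregulated. Fosl1, Jun and Jund did not pass. All 3 KA libraries lay above all 3 SH libraries for 5 of 7 members, Jun and Jund being the exceptions, against 3.61% of genes. The median logFC of the members was 1.74, and that of all genes was 0.14.

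In SH glia, Fos measured 12.8, 50.2 and 6.07 CPM in replicates 1, 2 and 3, and in KA glia 157.5, 88.3 and 217.0 CPM. SH replicate 2 was well above the other SH libraries, yet no KA library was as low, and the logFC was 2.74 ± 0.63 (FDR = 0.127, edgeR). Fosb measured 0.482, 1.56 and 0.837 CPM in SH glia, which were 6, 32 and 28 counts, and 5.82, 2.83 and 7.91 CPM in KA glia. The groups did not overlap, and the logFC was 2.50 ± 0.55 (FDR = 0.11, edgeR). Junb measured 32.5, 105.2 and 40.3 CPM in SH glia and 182.1, 150.5 and 504.4 CPM in KA glia. As in neurons, KA replicate 3 was the highest by far, and the logFC of 2.23 ± 0.60 lay just inside the threshold (FDR = 0.245, edgeR). Fosl2 measured 6.03, 11.8 and 9.38 CPM in SH glia and 23.6, 16.7 and 39.0 CPM in KA glia. The groups did not overlap, and the logFC was 1.53 ± 0.39 (FDR = 0.203, edgeR).

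Fosl1 measured 3.70, 4.19 and 3.65 CPM in SH glia and 10.8, 11.4 and 16.3 CPM in KA glia. Both groups were tight and did not overlap, and the logFC of 1.74 ± 0.49 lay just outside the threshold (FDR = 0.287, edgeR). Jun measured 74.0, 183.8 and 106.0 CPM in SH glia and 168.4, 131.9 and 316.8 CPM in KA glia. The groups overlapped through SH replicate 2, and the logFC was 0.76 with a 95% interval from -0.20 to 1.72 (FDR = 1, edgeR). Jund measured 32.9, 38.8 and 26.2 CPM in SH glia and 33.5, 12.9 and 24.4 CPM in KA glia. It was the 1 member with a negative logFC, -0.47, with a 95% interval from -1.22 to 0.28 (FDR = 1, edgeR).

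The calls in glia were less steady than the logFC. With the replicate number as a block, Fosl1 also passed (FDR = 0.0115), for 5 of 7 members, against 3.47% of all genes upregulated in that fit. In a fit of glia alone, and without the 2 libraries of low RNA input, 0 of 7 members passed by edgeR. In the edgeR fit of all libraries 4 of 7 passed, and 5 of 7 had an unadjusted p under 0.05. With all libraries, 5 of 7 passed by DESeq2, which called 364 of 37598 genes higher and 602 lower. By limma-voom 2 of 7 passed, with 201 genes higher and 175 lower. Without SH glia 1, SH glia 3 or KA glia 3, neither Fos (FDR = 0.346, 0.405 and 0.288) nor Fosb (FDR = 0.273, 0.475 and 0.289) passed. Fosl2 passed in 3 of 12 fits that each left out 1 library, those without SH neurons 1, SH neurons 3 or SH glia 2, and its FDR elsewhere was 0.266 to 0.69. Junb also passed in 3 of 12, those without KA neurons 3, SH glia 2 or KA glia 1, with an FDR of 0.269 to 0.95 elsewhere. Fosl1 passed without SH neurons 1 (FDR = 0.122). Over the 12 fits the logFC stayed between 2.29 and 4.04 for Fos, 2.12 and 3.00 for Fosb, 1.13 and 1.76 for Fosl2, 1.48 and 2.94 for Junb, and 1.52 and 1.85 for Fosl1.

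**Figure D2:**
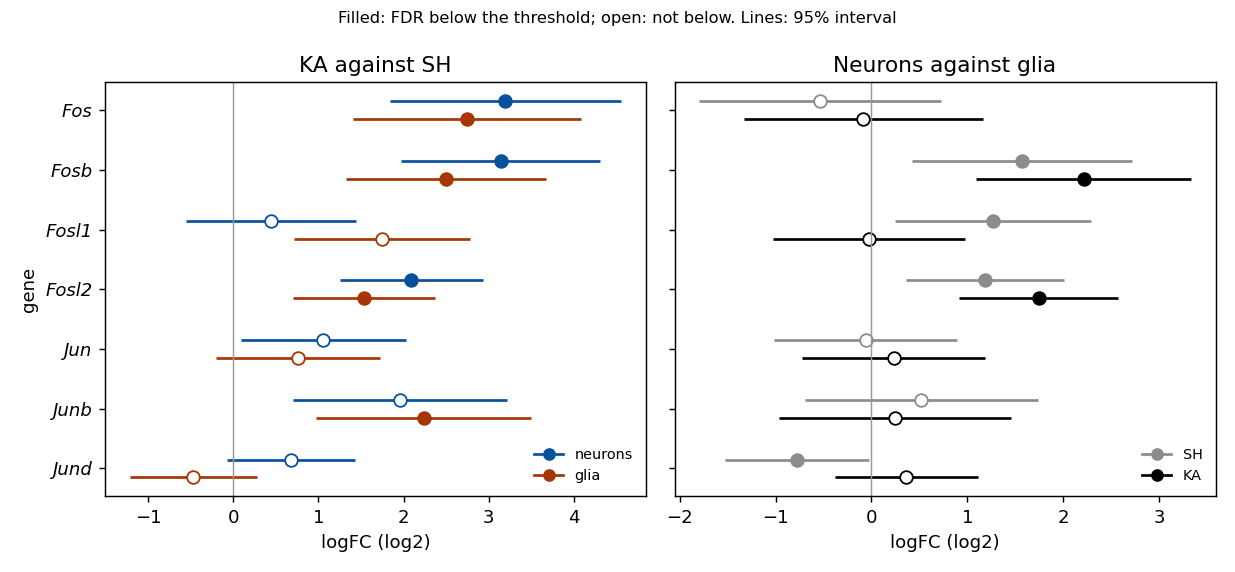
logFC (points) with 95% intervals (lines) of the 7 genes, for KA against SH in neurons and in glia on the left and for neurons against glia in SH and in KA on the right. Filled points passed an FDR of 0.25. The neuronal and glial intervals overlap for each gene on the left, while Fosb and Fosl2 lie right of 0 in both treatments on the right.

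The difference between the KA effect in neurons and that in glia was tested in the same fit. By edgeR, 0 of 7 members passed, 1 of 7 had an unadjusted p under 0.05, and 0 of 7 passed by DESeq2 or limma-voom. Of all genes tested, 0% passed in either direction in this fit, with 502 genes at an unadjusted p under 0.05. It takes both fractions of a pool as independent. With the replicate block within cell types, 109 genes passed with a larger logFC in neurons and 42 with a smaller one. With the block by pool these were 118 and 59, and by DESeq2 without a block 18 and 16. In each of these fits, 0 of 7 members passed. In the edgeR fit without a block, the member with the smallest unadjusted p was Jund. Its logFC in neurons exceeded that in glia by 1.14 (95% interval 0.08 to 2.20, FDR = 1, edgeR). Fosl1 pointed the other way, with a difference of -1.29 (95% interval -2.72 to 0.13, FDR = 1, edgeR). For Fos the difference was 0.45, with a 95% interval from -1.32 to 2.22, and its sign turned in 3 alternative fits. For Fosb the interval ran from -0.94 to 2.22 and for Fosl2 from -0.59 to 1.70.

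The next comparison asked in which fraction each member was higher. In SH, Fosb, Fosl1 and Fosl2 were higher in neurons and Jund was higher in glia. These were 3 of 7 members against 12.3% of genes higher in neurons, and 1 of 7 against 7.57% of genes lower in neurons. The fold of neurons over glia was 2.97 for Fosb (logFC 1.57 ± 0.54, FDR = 0.0829, edgeR), 2.41 for Fosl1 (FDR = 0.123) and 2.28 for Fosl2 (FDR = 0.0636). Jund had a logFC of -0.78 ± 0.36 (FDR = 0.226, edgeR). All SH neurons lay above all SH glia for 2 of 7 members, Fosb and Fosl2, against 14.1% of genes, and below for 1 of 7, Jund, against 8.57%. Fosl1 overlapped because SH neurons 1, at 2.97 CPM, was below the 3 SH glia libraries. Fos, Jun and Junb did not pass, with logFC of -0.54, -0.06 and 0.52.

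In KA, Fosb and Fosl2 were higher in neurons, 2 of 7 members against 11.2% of genes, and no member was lower. The fold of neurons over glia was 4.64 for Fosb (logFC 2.21 ± 0.53, FDR = 0.0113, edgeR) and 3.35 for Fosl2 (logFC 1.74 ± 0.39, FDR = 0.00757, edgeR). These 2 were also the members whose KA neurons all lay above KA glia, against 15.3% of genes. Both passed in each of the 12 fits that left out 1 library. Fosl1, higher in neurons in SH, had a logFC of -0.03 in KA (95% interval -1.02 to 0.97), and Jund, higher in glia in SH, had 0.36 (95% interval -0.38 to 1.11). For Fos the logFC was -0.09 (95% interval -1.33 to 1.16). Jun and Junb had logFC of 0.23 and 0.25, and the signs of Jun, Junb and Jund in KA turned when libraries were scaled by their total counts (logFC -0.19, -0.13 and -0.12).

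In SH the calls rested on single libraries. Without SH glia 1, the low-input library, Fosb (FDR = 0.494), Fosl1 (FDR = 0.513) and Fosl2 (FDR = 0.502) did not pass. Fosb did not pass without SH neurons 2 (FDR = 0.289), nor Fosl2 without SH neurons 3 (FDR = 0.28) or KA glia 1 (FDR = 0.27). Fosl1 did not pass without SH neurons 2 or 3 or KA glia 1 or 2 (FDR = 0.364, 0.405, 0.299 and 0.318). Jund passed in 5 of 12 fits, those without SH glia 1, SH glia 3 or any KA glia library, with an FDR of 0.273 to 0.458 elsewhere. With the pool as a block, Junb also passed as higher in SH neurons (logFC 0.70, FDR = 0.195), where 21.9% of all genes passed as higher in neurons. Ccdc85b, which shares exons with Fosl1, was also higher in SH neurons than in SH glia (logFC 0.83, FDR = 0.205, edgeR).

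Markers of each fraction were also found in the other, and the ratio of glia to neurons within a pool was therefore set beside that of marker genes. The summed CPM of 15 neuronal markers in KA glia was 8.30%, 15.3% and 22.9% of that in KA neurons of pools 1, 2 and 3. Fosb in KA glia was 25.3%, 16.8% and 21.5% of its level in neurons of these pools, so that it was near the neuronal markers in pools 2 and 3 and above them in pool 1. Fosl2 in KA glia was 30.0%, 19.03% and 39.3%, above the summed neuronal markers in each pool. The sum hides single genes, although 14 of 15 neuronal markers passed as higher in KA neurons than in KA glia. Mean levels in KA neurons and KA glia were 1672 and 169.4 CPM for Slc17a7, 196.0 and 50.6 CPM for Gad1, and 48.8 and 59.1 CPM for Tubb3. For Fosl2 they were 88.4 and 26.4 CPM. Fos in KA glia was 175.3%, 57.4% and 113.0% of its level in neurons, far above the share of the summed neuronal markers. In SH pools the neuronal markers were at 10.8%, 27.0% and 20.4%, Fosb at 29.5%, 36.6% and 30.1%, and Fos at 55.1%, 417.8% and 48.6%. In the other direction, KA neurons held 10.1%, 28.9% and 42.8% of the summed level of 10 astrocyte markers in KA glia, 5.61%, 7.75% and 6.55% of 10 microglial markers and 1.34%, 5.54% and 5.01% of 8 oligodendrocyte markers. No gene of these 4 lists was at 0 in a library. The part of carried-over RNA in the results for Fosb, Fosl2 and the other members, and for the other genes named, was not tested.

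**Figure D3:**
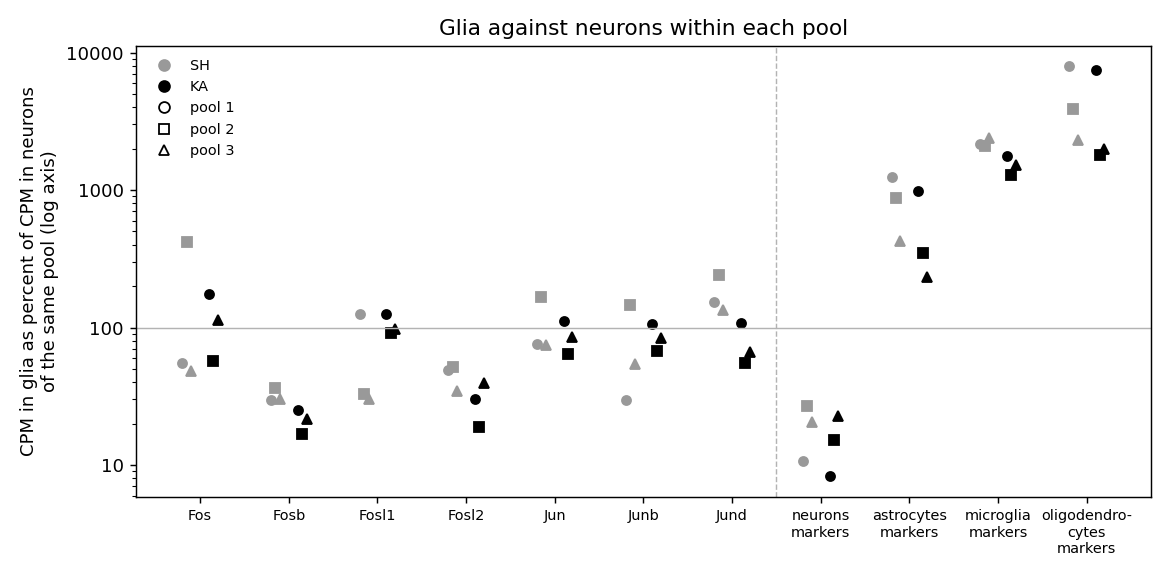
CPM in glia as a percent of CPM in neurons of the same pool, on a log axis, for the 7 genes and for 4 summed marker lists, in SH (grey) and KA (black), with a symbol per pool. In KA, Fosb (16.8% to 25.3%) lies next to the neuronal markers (8.30% to 22.9%). The ranges of Fos (57.4% to 175.3%), Fosl1, Jun, Junb and Jund each hold 100%.

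Marker levels were also compared between treatments within glia. Of the summed ranges given here, only those of oligodendrocytes and their precursors did not overlap. By edgeR, 0 of 8 oligodendrocyte, 1 of 5 precursor and 1 of 15 neuronal markers passed in glia, those that passed being lower in KA. With the replicate block, 5, 4 and 2 passed, all lower. No endothelial, pericyte or blood leukocyte marker passed without the block. The summed CPM of the 8 oligodendrocyte markers ranged from 14280 to 29770 in SH glia and from 7488 to 14030 in KA glia. The 10 astrocyte markers summed to 1922 to 2803 CPM and 1193 to 2304 CPM, the 10 microglial markers to 1119 to 2540 CPM and 831.0 to 1672 CPM, and the 5 oligodendrocyte precursor markers to 1757 to 2868 CPM and 784.2 to 1564 CPM. The 15 neuronal markers summed to 606.7 to 1800 CPM in SH glia and 451.8 to 1533 CPM in KA glia. Endothelial (7 genes), pericyte (5 genes) and blood leukocyte (7 genes) markers summed to 12.7 to 47.2, 31.6 to 51.7 and 85.0 to 99.8 CPM in SH glia and to 21.8 to 67.7, 22.5 to 55.5 and 96.2 to 149.9 CPM in KA glia. Of the leukocyte genes, S100a8 was at 0 in at least 1 library of each group, S100a9 in SH glia and Ly6c2 in KA neurons. In neurons, the 15 neuronal markers summed to 5625 to 8827 CPM in SH and 5446 to 6705 CPM in KA. The summed ranges hide single genes of the astrocyte and microglial lists. Gfap, a filament gene of reactive astrocytes, ranged from 118.8 to 175.6 CPM in SH glia and from 359.6 to 720.0 CPM in KA glia (logFC 1.94, FDR = 0.546, with the replicate block FDR = 0.00142, edgeR). The water channel gene Aqp4 ranged from 72.4 to 101.5 CPM and from 130.5 to 157.7 CPM (logFC 0.69, FDR = 1), whereas Aldoc, a glycolytic gene of astrocytes, ranged from 177.6 to 348.3 CPM and from 46.7 to 131.6 CPM (logFC -1.76, FDR = 0.245). Of the 10 astrocyte genes, 0 passed as higher and 1 as lower in glia, and 1 and 6 with the replicate block. For the 10 microglial genes these were 0 and 2, and 0 and 3 with the block. P2ry12 ranged from 63.6 to 229.3 CPM in SH glia and from 21.1 to 40.4 CPM in KA glia (logFC -2.375, FDR = 0.0826, edgeR). Siglech ranged from 63.8 to 167.7 CPM and from 20.9 to 24.5 CPM (logFC -2.18, FDR = 0.0295, edgeR). The ranges of C1qa and C1qb overlapped (logFC -0.14 and -0.09). The part of a changed cell mix or cell state in the rise of the 4 members in glia was not tested.

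To compare members with each other, CPM were divided by the kilobases of exon that no other gene overlaps, because the authors' counting left out reads in shared exons. This matters for Fosl1, 57.2% of whose exon bases are shared with Ccdc85b on the opposite strand, and for Jund, with 52.6% shared with the antisense gene Gm11175. The shares were 7.28% for Jun and 7.52% for Junb, and Fos, Fosb and Fosl2 shared none. Counting ignored the strand, so reads from a gene and its antisense partner cannot be told apart. The values of Fosl1 and Jund per length are therefore the least certain.

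On this scale, SH neurons held most of Junb (40.1 ± 9.76 CPM per kb, SD, n = 3) and Jun (39.3 ± 7.81), whose ranges overlapped, followed by Jund (24.0 ± 3.29), which lay apart from Jun. Fosl1 (10.6 ± 6.27) and Fos (6.76 ± 2.69) overlapped, and Fosl2 (2.14 ± 0.79) and Fosb (0.463 ± 0.211) came last, each apart from its neighbour. In KA neurons the order was Junb (155.8 ± 109.8 CPM per kb), Jun (81.7 ± 38.2), Fos (61.8 ± 22.0), Jund (38.4 ± 8.49), Fosl1 (14.5 ± 4.64), Fosl2 (9.13 ± 1.08) and Fosb (4.10 ± 1.64). The first 4 overlapped with their neighbours, Jund lay apart from Fosl1, and Fosb lay apart as the lowest. In SH glia, Jund (41.3 ± 7.96), Jun (41.0 ± 19.1) and Junb (27.9 ± 18.8) overlapped, with Fos (9.78 ± 10.1), Fosl1 (4.42 ± 0.34), Fosl2 (0.938 ± 0.301) and Fosb (0.154 ± 0.0878) below in the mean. Fos overlapped with both Junb and Fosl1, while Fosl2 and Fosb each lay apart. In KA glia the order was Junb (131.1 ± 92.0), Jun (69.6 ± 33.1), Fos (65.6 ± 27.4), Jund (29.9 ± 13.1), Fosl1 (14.8 ± 3.50), Fosl2 (2.73 ± 1.18) and Fosb (0.884 ± 0.409). From Junb down to Fosl1, each member overlapped with the next, while Fosl2 and Fosb each lay apart. Fosb was the lowest member in each of the 4 groups and Fosl2 the next. Divided by the full exon length instead, Jund took place 3 instead of 1 in SH glia, at 19.6 CPM per kb, Fos passed Fosl1 in SH neurons, Fosl2 passed Fosl1 in KA neurons, and Fos passed Jun in KA glia.

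The share of the Fos genes was higher in KA in both fractions, and that of Junb was higher in KA glia. The 4 Fos genes together took 11.8% to 20.0% of the summed CPM per kb in SH neurons and 20.5% to 31.0% in KA neurons, and 8.22% to 14.7% in SH glia and 23.7% to 30.9% in KA glia. Neither pair of ranges overlapped. The share of Fos itself was 4.09% to 7.84% in SH neurons against 14.3% to 22.1% in KA neurons, and 2.69% to 11.3% in SH glia against 18.8% to 25.02% in KA glia. In neurons the mean share of Fosl1 went the other way, from 8.72% in SH to 4.18% in KA. Its ranges overlapped, at 2.71% to 12.85% and 3.37% to 4.87%. The share of Jund was 17.9% to 21.4% in SH neurons and 8.16% to 17.0% in KA neurons, although its CPM in KA neurons were not lower. In glia the share of Jund was 26.1% to 45.1% in SH and 6.28% to 15.8% in KA. The share of Junb was 16.5% to 26.3% in SH glia and 32.0% to 48.2% in KA glia, without overlap. In neurons the ranges of Junb overlapped, at 26.9% to 40.8% in SH and 34.8% to 49.45% in KA. Summed over the family, the level ranged from 114.6 to 129.9 CPM per kb in SH neurons, from 230.5 to 569.8 in KA neurons, from 92.3 to 188.3 in SH glia and from 184.5 to 491.4 in KA glia. These shares are a description, with no test, and the weight of Fosl1 and Jund in them rests on the part of their exons that could be counted.

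**Figure D4:**
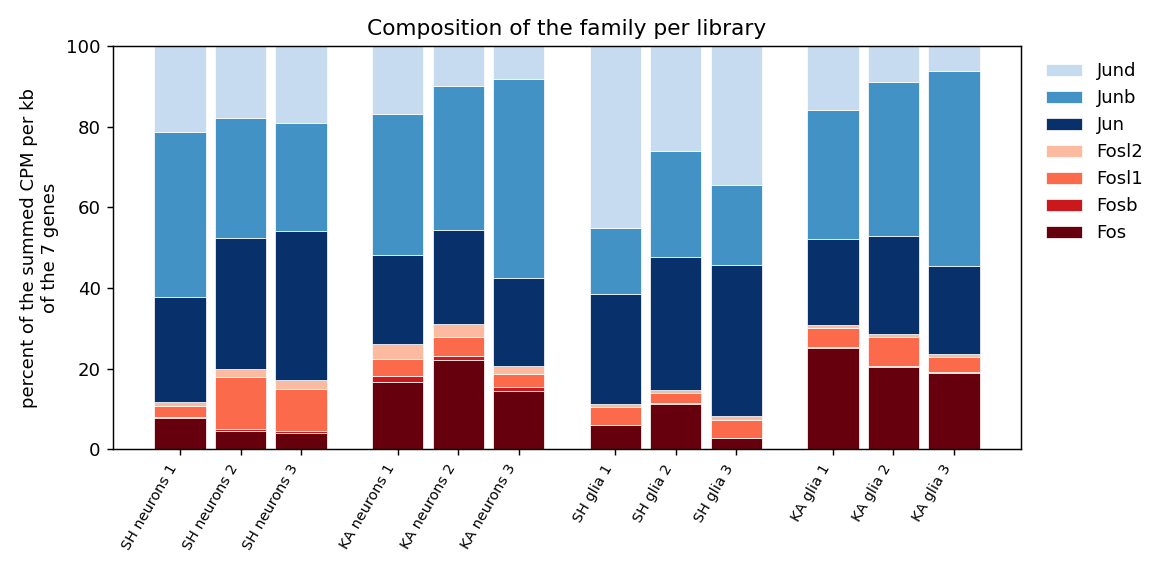
Percent of the summed CPM per kb of the 7 genes taken by each gene, as stacked bars for each of the 12 libraries, with Fos genes in red and Jun genes in blue. Fos takes 2.69% to 11.3% in the 6 SH libraries and 14.3% to 25.02% in the 6 KA libraries.

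Dimer partners were represented by 20 genes for other leucine zipper proteins that pair with Fos or Jun or compete for their sites. As with the lists below, they were chosen with earlier results of these data known, so the comparison with all genes is a description. In neurons 2 of 20 rose, Atf3 and Bach1, and none fell, against 0.279% of all genes upregulated, with a median logFC of 0.46. Atf3, a stress-induced factor that pairs with Jun, ranged from 0.363 to 2.32 CPM in SH neurons and from 13.8 to 42.1 CPM in KA neurons (logFC 4.37 ± 0.99, FDR = 0.169, edgeR). Bach1, a repressor that pairs with small Maf proteins, ranged from 2.48 to 5.35 CPM and from 8.97 to 16.1 CPM (logFC 1.64 ± 0.39, FDR = 0.208, edgeR). In glia 1 of 20 rose, Cebpb, a factor of inflammatory responses, from 14.3 to 17.5 CPM in SH to 28.8 to 67.6 CPM in KA (logFC 1.47 ± 0.37, FDR = 0.196, edgeR), against 0.442% of all genes, with a median logFC of 0.38. These counts rested on single libraries. In neurons 0 passed without SH neurons 1, 2 or 3 or KA neurons 2 or 3, 1 passed without SH glia 2 or KA glia 1 or 2, and 0 by limma-voom. In glia 0 passed without any 1 KA library of either fraction, SH glia 1 or SH glia 3, and 2 passed without SH glia 2. With the replicate block, 2 of 20 passed in glia, all higher, Atf3 being added (FDR = 0.0328). For the difference between neurons and glia, 0 of 20 passed by edgeR, DESeq2 or limma-voom, and 0 of 20 had an unadjusted p under 0.05.

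Upstream regulators were represented by 22 genes for serum response factor, its partners, and the kinases that act on Fos and Jun. By edgeR, 0 of 22 passed in neurons or in glia, with 1 of 22 at an unadjusted p under 0.05 in each. DESeq2 called 1 of 22 in neurons and 0 in glia, and limma-voom 0 in both. The median logFC was -0.12 in neurons and -0.16 in glia. The kinase gene Mapk3, which encodes ERK1, was lower with the replicate block in both fractions (logFC -1.05, FDR = 0.0423 in neurons and logFC -0.71, FDR = 0.176 in glia), and Rps6ka3, for a kinase downstream of ERK, was higher in glia (logFC 0.75, FDR = 0.209). These genes were named because the block changed their calls, after their values were seen.

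Genes reported as AP-1 targets were represented by 24 genes, listed with earlier results of these data known. Their share of calls and their median logFC describe the list and are no independent test. In neurons 3 of 24 passed, Timp1, Vim and Spp1, and in glia 8 of 24, with none lower, against 0.279% and 0.442% of all genes upregulated. Without 1 library, 1 to 5 passed in neurons, with 1 without SH neurons 1 or 2 or KA neurons 3 and 5 without SH glia 1 or KA glia 3, and 5 to 8 passed in glia, with 5 without SH glia 3 or KA glia 3. In neurons 9 passed by DESeq2, which called 292 of 37598 genes higher and 140 lower. By limma-voom 1 passed, with 83 genes higher and 25 lower. Timp1, an inhibitor of matrix metalloproteinases, ranged from 0 to 0.449 CPM in SH neurons and from 3.82 to 13.0 CPM in KA neurons (logFC 4.99 ± 0.75, FDR = 0.0251, edgeR), and from 0.536 to 1.04 CPM in SH glia and 15.1 to 23.7 CPM in KA glia (logFC 4.71 ± 0.72, FDR = 0.0214). Vim, an intermediate filament gene, had a logFC of 2.80 ± 0.56 in neurons (FDR = 0.0943). Spp1, which encodes osteopontin, ranged from 3.65 to 22.2 CPM in SH glia and from 159.6 to 785.6 CPM in KA glia (logFC 5.30 ± 0.82, FDR = 0.0241), with a logFC of 3.28 ± 0.76 in neurons (FDR = 0.193). Ccl2, a chemokine gene, ranged from 1.52 to 7.40 CPM in SH glia and from 29.2 to 101.1 CPM in KA glia (logFC 3.58 ± 0.57, FDR = 0.0257). The median logFC of the list was 1.02 in neurons and 1.21 in glia, beside 0.00 and 0.14 for all genes. With the replicate block, 10 of 24 passed in neurons, all higher, and in glia 11 higher and 2 lower. In that fit 1.94% of all genes were higher and 1.11% lower in neurons, and 3.47% were higher and 4.17% lower in glia. The 3 genes called in neurons had higher mean levels in KA glia than in KA neurons, 28.6 to 40.7 against 8.71 to 30.6 CPM for Vim, with overlapping ranges, and 159.6 to 785.6 against 6.66 to 35.7 CPM for Spp1. In the same neuronal libraries Gfap went from 16.7 to 49.4 CPM in SH to 25.2 to 248.1 CPM in KA (logFC 1.97, FDR = 0.731, with the block FDR = 0.0128, edgeR), and Sox9, a nuclear factor of astrocytes, from 5.02 to 17.2 CPM to 17.2 to 56.3 CPM (logFC 1.62, FDR = 0.52, with the block FDR = 0.00454). These were the 2 of 10 astrocyte genes that passed as higher in neurons with the block, and 0 passed without it. Aldoc passed as lower with the block (logFC -1.21, FDR = 0.025, edgeR). The median logFC of the 10 genes in neurons was -0.07. The part of RNA carried over from glia in these neuronal calls was not tested. Whether Fos or Jun proteins act on these genes here was not measured.

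Genes with a pattern like that of each member were sought over the 12 libraries by the mean absolute difference of log2 CPM, each gene centred on its own mean, among 25226 genes with a mean of at least 1 CPM. Closest to Fos were Gadd45b (0.39 log2 units on average), Gm14221 (0.57) and Ier2 (0.57), where Fos itself deviated from its mean by 1.61 on average. Closest to Junb were Itga2b (0.42), Nfil3 (0.43) and Egr1 (0.43), another immediate early gene. Closest to Fosb were Fndc9 (0.36), Vgf (0.43) and Fosl2 (0.50), the 1 case of a member near another. Closest to Fosl2 were Gpr3 (0.25), Mapk4 (0.27) and Stk40 (0.33), and closest to Fosl1 were Gm47590 (0.26), Col20a1 (0.29) and Slc4a8 (0.31). For Jun these were Rcan1 (0.20), Bcat1 (0.21) and Cdyl (0.24), and for Jund Cdc14b (0.24), Cpne3 (0.24) and E030022I16Rik (0.25), both members with a small deviation of their own, 0.52 and 0.39. The libraries share pools and depth, and the distances are a description.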

How the data were processed

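Nuclear mRNA of 12 libraries (3 pools per treatment and fraction, SMART-Seq v4) was measured. The authors trimmed reads with Trim Galore 0.4.3, aligned them to mm10 with Rsubread, and deposited raw counts per gene from featureCounts (defaults, GENCODE M16). Symbols and exons came from GENCODE M21, start sites from RefSeq.

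Genes with a symbol (53274 of 53379) were filtered with filterByExpr (minimum count 10, minimum total 15), scaled by TMM and fitted in 1 model with 4 group means (edgeR 4.0.16 glmQLFit with legacy=TRUE, R 4.3.3, limma 3.58.1, DESeq2 1.42.0). The study treated cell types separately; separate fits were an alternative. The Benjamini-Hochberg FDR threshold was 0.25. SEs were derived from the logFC and its F statistic. Steps were tested on simulated data. P-values of the main fit measure the spread between libraries within groups. Comparisons of the fractions thereby take both libraries of a pool as independent. With a block, P-values rest on the spread left after it.

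Deviations of same-numbered KA and SH libraries from their group means correlated (0.399, 0.264 and 0.551 in neurons, 0.457, 0.543 and 0.764 in glia for replicates 1, 2 and 3), as did both fractions of a pool (0.293 to 0.649). A replicate block was therefore fitted as well, although the sources describe no pairing.

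The 7 members were named whatever their values, up to 3 genes per list and direction by p, and the 3 genes most alike per member. Members, lists and markers were chosen with earlier results of these data known. DNA methylation was not analysed here. Figures used matplotlib 3.10.9.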

Additional observations from a re-analysis of the deposited data

How the results depend on the processing

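Alternatives were other fits, tests, scalings, filters, gene sets and thresholds, and each library left out in turn. In neurons, 5 members passed with each cell type fitted on its own or with the replicate block, 0 at an FDR of 0.05, and 0 to 4 without 1 library. In glia, 0 passed with each cell type on its own, at an FDR of 0.05 or without the low-input libraries, 2 by limma-voom, and 0 to 4 without 1 library. For neurons against glia in SH, 2 passed by limma-voom, 1 without a filter, 1 without the low-input libraries, 0 at an FDR of 0.05, and 1 to 4 without 1 library. In KA, 1 passed with at least 10 counts in every library, where Fosb could not be tested. For the 7 members, the blocks changed no call beyond those given in the report, while marker calls also moved with them. The causes were not tested.

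No called member changed sign. Among the others, the difference for Fos was -0.04 with the replicate block within cell types, -0.047 with that by pool and -0.011 by limma-voom. Jun in SH was 0.026 with the block by pool and 0.02 by limma-voom. In KA, Jun, Junb and Jund were -0.19, -0.13 and -0.12 with total counts, and -0.20, -0.28 and -0.02 without the low-input libraries, and Jun and Junb -0.065 and -0.036 with at least 10 counts. Without 1 library, ranges that held both signs were, for the difference, -0.84 to 0.91 for Fos, -0.14 to 0.76 for Jun and -1.02 to 0.48 for Junb, in SH -1.13 to 0.77 for Fos, -0.64 to 0.38 for Jun and -0.089 to 1.24 for Junb, and in KA -0.52 to 0.26 for Fos, -0.46 to 0.20 for Fosl1, -0.20 to 0.70 for Jun, -0.49 to 1.008 for Junb and -0.07 to 0.53 for Jund.

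Scaling moved the median logFC of all genes from 0.14 to 0.42 in glia, from 0.01 to -0.33 in SH and from -0.24 to -0.77 in KA with total counts. Over all genes, 4628 were higher and 2846 lower in SH neurons than SH glia, 3379 and 3214 with RLE factors and 3710 and 4302 with total counts. In KA these were 4200 and 2490, 3162 and 2818, and 3161 and 4644. Upregulated and downregulated genes in glia numbered 166 and 115, and 514 and 226 with total counts. With the replicate block they were 1305 and 1566, and 730 and 417 in neurons, against 105 and 23. Low counts limit Fosb in SH glia, at 6 to 32 counts.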

Other observations

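Of the genes whose exons overlap a member, Ccdc85b, opposite Fosl1, ranged from 28.3 to 39.9 CPM in SH neurons and from 25.3 to 36.1 CPM in KA neurons, and from 12.7 to 25.6 CPM in SH glia and from 9.30 to 19.8 CPM in KA glia. It passed in neither fraction (logFC -0.08 and -0.50, FDR = 1 in both, edgeR), while Fosl1 had logFC of 0.45 and 1.74. Between fractions, Ccdc85b was higher in neurons in SH (logFC 0.83, FDR = 0.205) and in KA (logFC 1.26, FDR = 0.0403, edgeR). Gm11175, antisense to Jund, had 0 counts in all 12 libraries. Junos, antisense to Jun, had logFC of 0.02 in neurons and 1.17 in glia (FDR = 1 in both, edgeR), and passed in glia with the replicate block (FDR = 0.239). Prdx2, which overlaps Junb, had logFC of -0.47 and -0.26 (FDR = 1 in both, edgeR).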
